A study of Danio rerio with 4 samples.

Results

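The mitochondrial genome encodes 7 subunits of respiratory complex I, the NADH dehydrogenase, and all 7 were measured in zebrafish ovary. They were taken by their Ensembl identifiers: MT-ND1 (ENSDARG00000063895), MT-ND2 (ENSDARG00000063899), MT-ND3 (ENSDARG00000063914), mt-nd4l (ENSDARG00000063916), MT-ND4 (ENSDARG00000063917), MT-ND5 (ENSDARG00000063921) and MT-ND6 (ENSDARG00000063922). These are 7 of the 49610 rows in each deposited table. MT-ND4 and mt-nd4l carry the same value in every library and are given as 1 locus, so the 7 genes form 6 loci. All 6 have a mean of at least 1 FPKM (fragments scaled by transcript length and by library size) over the libraries, as do 13859 loci in all. MT-ND2 and MT-ND3 each share their values with 1 further row that has no gene name in the tables used here, so reads of that row may be part of their level.

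Ovarian mRNA had been sequenced from wild-type female zebrafish of strain AB, 5 months old. The exposed groups were DBP (dibutyl phthalate), DiBP (its branched isomer diisobutyl phthalate) and both compounds combined, each for 30 days, beside an unexposed control. Each group is 1 library. Doses, and the number of fish behind a library, are not stated in the labels. With 1 library a group there is no replicate error and no test: every difference below compares libraries, not conditions, and was called only by size, at 2-fold. Ratios are differences of log2(FPKM + 1), with the library named first on top.

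Complex I takes electrons from NADH, passes them to ubiquinone and pumps protons across the inner mitochondrial membrane. Its membrane arm is built on the mitochondrially encoded subunits, and its remaining subunits are made from nuclear genes and imported. ND2, ND4 and ND5 are the antiporter-like subunits of the proton path. ND1 forms the membrane part of the ubiquinone pocket, ND3 carries a flexible loop near that pocket, and ND4L and ND6 lie between ND1 and the antiporter-like subunits. Mitochondrial mRNAs are cut from long transcripts of the whole circular genome, and in vertebrates ND6 is the one protein gene read from the light strand. Oocytes are rich in mitochondria, which the embryo inherits from the egg. Complex I genes lie in 2 stretches of the gene order. ND1 and ND2 are the first and second of the 13 protein genes, ND3, ND4L, ND4, ND5 and ND6 are the 8th to the 12th, and the genes of cytochrome c oxidase and ATP synthase lie between these stretches, with cytochrome b last.

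Each of the 6 complex I loci was most abundant with DBP, a library that had the highest level at 26.1% of all loci. Levels of MT-ND1 were 584 FPKM in the DBP library, 310 with DiBP, 180 with both compounds and 89.8 in the control. No other member had so wide a range: the highest library was 6.51 times the lowest. MT-ND5 was at 173 FPKM in the DBP library, 111 with DiBP, 78.4 with both compounds and 35.0 in the control. MT-ND6 was at 340 FPKM in the DBP library, 196 with DiBP, 172 with both compounds and 77.1 in the control. In these 3 loci the libraries stood in the same order, with the control lowest. In bulk tissue, fewer cells of a type and less RNA per cell cannot be told apart, and the same holds for the number of mitochondria.

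The remaining 3 loci were also highest in the DBP library but differed in the order of the other libraries. MT-ND2 was at 252 FPKM in the DBP library, 107 with DiBP, 116 with both compounds and 81.6 in the control, so that DiBP and combined lay close together. MT-ND3 was at 522 FPKM in the DBP library, 224 with DiBP, 99.6 with both compounds and 153 in the control. The locus of MT-ND4 and mt-nd4l was at 394 FPKM in the DBP library, 206 with DiBP, 124 with both compounds and 135 in the control. In both of these the combined library was the lowest. The control was the lowest library at 4 of the 6 loci, against 22.4% of all loci. The rank among members changed too: MT-ND1 was the highest of the 6 in each exposed library, whereas MT-ND3 was the highest in the control, above the MT-ND4 and mt-nd4l locus and MT-ND1. MT-ND5 was the lowest in the DBP, combined and control libraries, and MT-ND2 in the DiBP library. FPKM is a level per length, so members can be ranked, but the length used for the merged MT-ND4 and mt-nd4l locus is not known.

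Neighbouring members did not keep a fixed ratio of levels. MT-ND1 was at 2.32 times the FPKM of its neighbour MT-ND2 in the DBP library, 2.90 times with DiBP, 1.56 times with both compounds and 1.10 times in the control. The ratio of MT-ND3 to the adjoining MT-ND4 and mt-nd4l locus was 1.33 in the DBP library, 1.09 with DiBP, 0.805 with both compounds and 1.13 in the control. The ratio of MT-ND6 to its neighbour MT-ND5 varied least of these 3, at 1.96 in the DBP library, 1.77 with DiBP, 2.20 with both compounds and 2.20 in the control. The members were spread over 3.38-fold in the DBP library, 2.90-fold with DiBP, 2.30-fold with both compounds and 4.39-fold in the control, so the 6 levels lay closest together in the combined library and widest apart in the control.

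**Figure D1:**
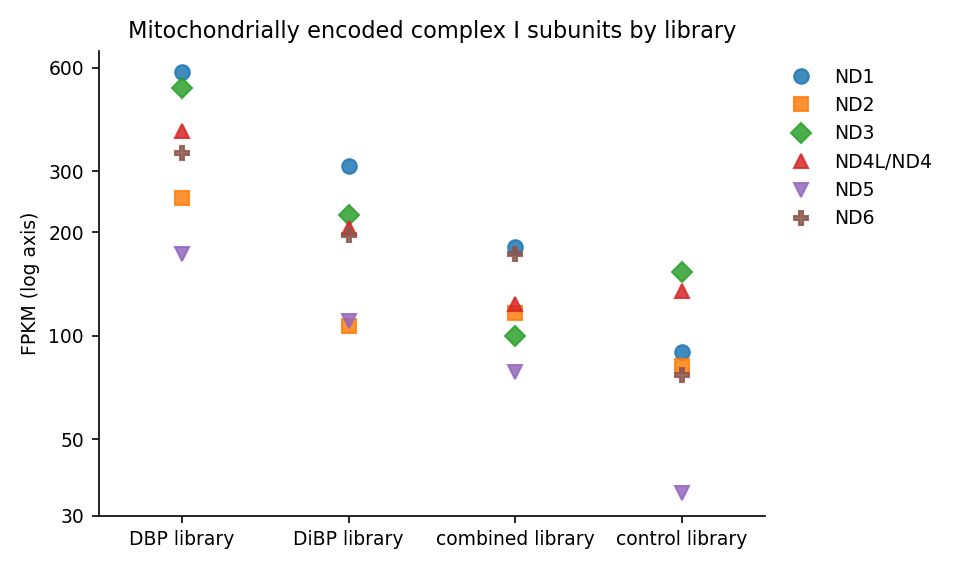
Level of each mitochondrially encoded complex I locus in FPKM (log axis) in the DBP, DiBP, combined and control libraries, 1 point per locus and library, with no error because each group is 1 library. The 6 loci lie between 173 and 584 FPKM in the DBP library and between 35.0 and 153 FPKM in the control.

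In the DBP library all 6 complex I loci were at least 2-fold higher than in the control, against 4.81% of all loci (3.31% were at least 2-fold lower). Their median log2 ratio was 1.94, or 3.85-fold, and the median of all loci was 0.01. The members lie on the same molecule and are not replicates, so counts of members, here and below, are not counts of independent genes. The log2 ratio was 2.69 for MT-ND1, 2.27 for MT-ND5, 2.13 for MT-ND6, 1.76 for MT-ND3, 1.61 for MT-ND2 and 1.54 for the MT-ND4 and mt-nd4l locus. The members were also set beside the 553 loci whose mean lies within their own range, of 99.2 to 291 FPKM, a comparison added after the values were seen. Of these 553 loci, which include the 6 members themselves, 3.98% passed 2-fold upward. MT-ND1 had the highest ratio among them, and the 6 complex I loci stood within the first 12. With DiBP the ranks among the 553 ran from 5 for MT-ND1 to 175 for MT-ND2, and with both compounds from 13 for MT-ND6 to 531 for MT-ND3, so the members did not stand together there.

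In the DiBP library all 6 loci were above the control as well, and 3 of them by at least 2-fold, against 7.25% of all loci (7.04% were at least 2-fold lower). The log2 ratio was 1.78 for MT-ND1, 1.63 for MT-ND5 and 1.33 for MT-ND6. It was 0.60 for the MT-ND4 and mt-nd4l locus, 0.54 for MT-ND3 and 0.39 for MT-ND2, so the loci formed a higher and a lower set of 3. The median was 0.97, in the gap between the sets, and -0.06 for all loci.

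In the combined library the members went different ways. Past 2-fold were MT-ND6 (log2 ratio 1.15) and MT-ND5 (1.14), or 2 of 6, against 3.48% of all loci (3.23% were at least 2-fold lower). MT-ND1, at 0.999, lay just under the 2-fold line on this scale, and its plain FPKM ratio was 2.01. MT-ND2 was at 0.50, the MT-ND4 and mt-nd4l locus at -0.13 and MT-ND3 at -0.62. The median was 0.75, against -0.08 for all loci. MT-ND1, MT-ND5 and MT-ND6 had the 3 highest ratios to control of the 6 members in each exposed library. The 3 comparisons share the control library, so these values do not stand independently of each other.

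**Figure D2:**
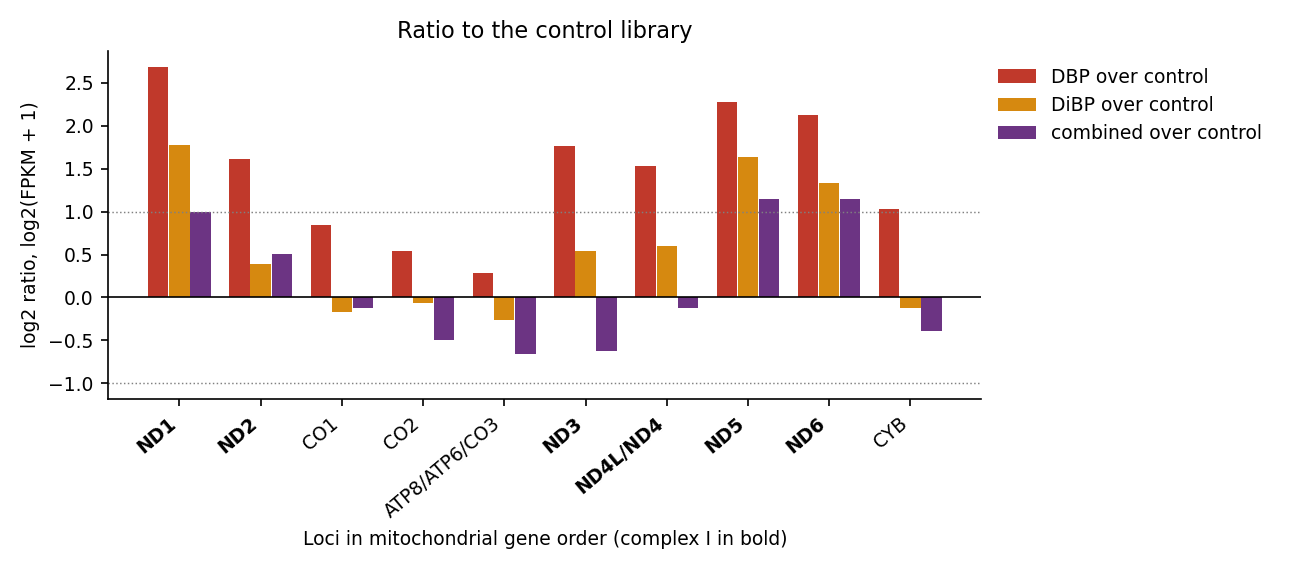
Difference of log2(FPKM + 1) from the control library for the 10 mitochondrially encoded protein loci in gene order, with 1 bar for each exposed library and dotted lines at 2-fold. Complex I loci (bold) reach 2.69 for DBP at MT-ND1, while the loci of the other complexes lie between -0.65 and 1.03.

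DiBP is the branched isomer of DBP. Their libraries share the 30 days of exposure, but whether the doses matched is not known. All 6 members were lower in the DiBP library than in the DBP library, with a median log2 ratio of -0.92 and a range of -1.23 to -0.64, against a median of -0.08 for all loci. At least 2-fold lower were 2 loci, MT-ND2 and MT-ND3, against 4.24% of all loci. The 4 mitochondrial loci outside complex I were lower too, with a median of -0.81. With 1 library each, no interval can be put on these differences.

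The combined library was also below the DBP library at all 6 members, with a median log2 ratio of -1.40, and 5 of the 6 were at least 2-fold lower, against 4.54% of all loci. That count was 4 with total scaling and 3 after scaling to the total less the 50 most abundant loci. MT-ND3 had the lowest ratio, at -2.38, and MT-ND6 the highest, at -0.97. Relative to the DiBP library, 5 of 6 members were lower and MT-ND2 was higher, at 0.12; after scaling to the total less the 50 most abundant loci it was 4 of 6, with MT-ND6 at 0.0017. The median was -0.61, and only MT-ND3, at -1.16, was at least 2-fold lower, against 5.97% of all loci. With the scaling that leaves out the 50 most abundant loci MT-ND3 was at -0.98, and the count was 0.

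The 4 libraries can also be read as DBP absent or present, without and with DiBP. Without DiBP, the library with DBP exceeded the one without it (the control) at all 6 loci. With DiBP, the library with DBP (the combined one) lay below the one without it at 5 of 6, or 4 of 6 with the scaling just named. This pair of opposite directions was seen at 33.1% of all loci. It was not particular to complex I: all 4 mitochondrial loci outside it were higher for DBP over control, and 3 of them were lower for combined over DiBP. The second log2 ratio less the first was -3.47 for MT-ND1, -2.92 for MT-ND3, -2.76 for MT-ND5, -2.31 for MT-ND6, -2.27 for the MT-ND4 and mt-nd4l locus and -1.50 for MT-ND2. Its median was -2.54, against -0.04 for all loci. Outside complex I the same difference was -0.79 for MT-CO1, -0.98 for MT-CO2 and -1.30 for MT-CYB. For the mt-atp8, MT-ATP6 and MT-CO3 locus it was -0.68. DBP over control and combined over DiBP share no library, but each rests on 1 library a side. Combined over DiBP also depends on which file is which, as their column names differ from the sample titles.

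**Figure D3:**
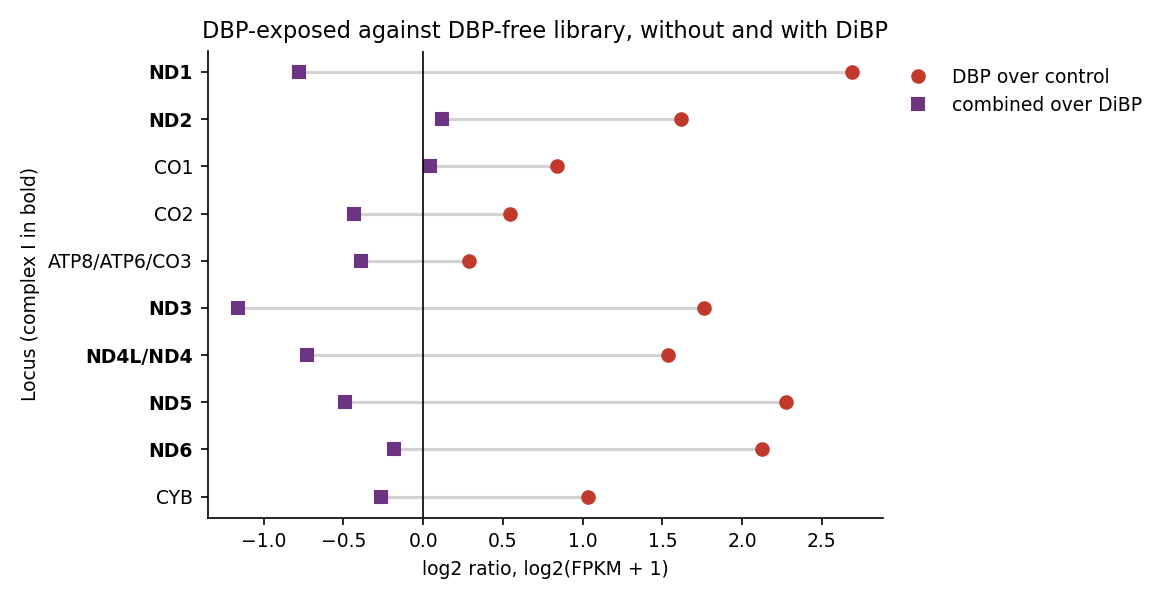
Log2 ratio of the DBP library over control (circles) and of the combined library over the DiBP library (squares), in log2(FPKM + 1), for the 10 mitochondrially encoded protein loci in gene order. At the complex I loci (bold) the circles lie between 1.54 and 2.69 and the squares between -1.16 and 0.12.

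The other 6 mitochondrially encoded proteins fall in 4 loci, because mt-atp8, MT-ATP6 and MT-CO3 share their value with each other and with 1 unnamed row. They were more abundant than complex I transcripts in every library. MT-CO1, a catalytic subunit of cytochrome c oxidase, was at 2490 FPKM in the DBP library, 1239 with DiBP, 1279 with both compounds and 1392 in the control. MT-CYB, the cytochrome b of complex III, was at 1717 FPKM in the DBP library, 771 with DiBP, 641 with both compounds and 839 in the control. Both were highest in the DBP library, and in the other exposed libraries both lay below the control. Relative to MT-CO1, MT-ND1 stood at 0.235 of its FPKM in the DBP library, 0.250 with DiBP, 0.141 with both compounds and 0.0645 in the control, more than 2 times the control ratio in each exposed library. The median log2 ratio to control of these 4 loci was 0.69 for DBP, -0.14 for DiBP and -0.44 for combined, each below that of complex I in the same library. In the DBP library the complex I ratios (1.54 to 2.69) did not overlap those of the other 4 loci (0.29 to 1.03), nor in the DiBP library (0.39 to 1.78 against -0.26 to -0.06). In the combined library they did, since MT-ND3 was lower than 3 of the 4. Of all 13859 loci, 280 lay above the lowest complex I ratio to control with DBP, 3216 with DiBP and 12590 with both compounds.

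Shares within the mitochondrial genome do not depend on how libraries are scaled to each other. Complex I loci held 21.6% of the summed FPKM of the 10 mitochondrial protein loci in the DBP library, 19.8% with DiBP, 16.5% with both compounds and 10.04% in the control. All 3 exposed libraries thus had a larger complex I share than the control. The sum of all 10 loci did not follow that order: it was 10482 FPKM in the DBP library, 5827 with DiBP, 4678 with both compounds and 5699 in the control. MT-ND1 held 5.57% of the sum in the DBP library, 5.32% with DiBP, 3.86% with both compounds and 1.58% in the control. MT-ND5 held 1.65% in the DBP library, 1.90% with DiBP, 1.68% with both compounds and 0.614% in the control, and its share was at least 2.69 times that of the control in each exposed library. MT-ND6 held 3.24%, 3.36% and 3.68% in the DBP, DiBP and combined libraries and 1.35% in the control. MT-ND5 and MT-ND6 are neighbours read from opposite strands, and whether reads were counted by strand is not given in the sources used here, so their levels cannot be fully told apart. MT-ND3 was the member whose share lay below the control in a library, with 2.13% in the combined library and 2.69% in the control. Among the loci outside complex I, MT-CO2 held 27.6% in the DBP library, 32.7% with DiBP, 30.1% with both compounds and 34.8% in the control. The share of the mt-atp8, MT-ATP6 and MT-CO3 locus was likewise lower in each exposed library, with 10.6%, 13.03% and 12.4% in the DBP, DiBP and combined libraries and 16.0% in the control. MT-CYB was above its control share of 14.7% in the DBP library (16.4%), and MT-CO1 above its 24.4% in the combined library (27.3%). Each was below its control share in the remaining exposed libraries. Shares are parts of 1 sum, so a larger complex I share makes the rest smaller.

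**Figure D4:**
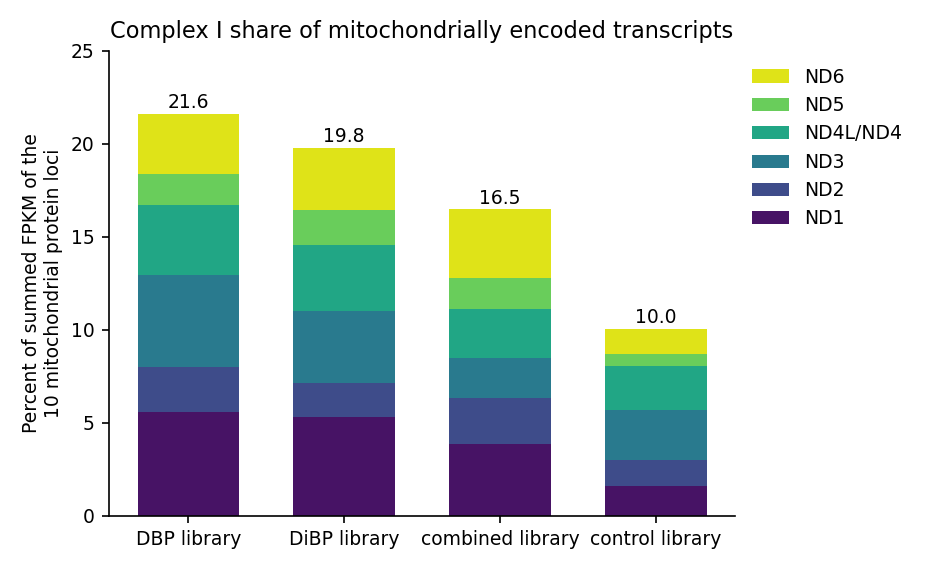
Share of the summed FPKM of the 10 mitochondrially encoded protein loci held by each complex I locus, in percent, stacked for each library. The stacks reach 21.6% in the DBP library, 19.8% with DiBP, 16.5% with both compounds and 10.04% in the control.

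Nuclear genes of the same enzyme differed less from the control. Of 37 listed nuclear complex I subunits 36 had a row and were measured, and 0 of 36 were at least 2-fold higher or lower than the control in the DBP, DiBP or combined library. Of all loci 4.81%, 7.25% and 3.48% were that much higher in the DBP, DiBP and combined libraries and 3.31%, 7.04% and 3.23% that much lower, so that few calls would be found in any list of this size, and the same shares apply to the lists that follow. Their median was 0.17 on the log2 scale with DBP, 0.26 with DiBP and -0.12 with both compounds, with 30, 26 and 12 of the 36 above the control, against 50.8%, 45.6% and 39.99% of all loci. The widest ratios were those of NDUFA1, NDUFA3 and ndufc2, small subunits of the membrane arm. NDUFA1 was at 84.2 FPKM in the DBP library, 125 with DiBP, 54.2 with both compounds and 64.3 in the control. The ratio of ndufc2 to control was 0.67 for DBP and 0.74 for DiBP, and 0.08 for combined. The median level of the nuclear subunits was 84.9 FPKM in the DBP library, 92.8 with DiBP, 68.6 with both compounds and 83.4 in the control. The median of the mitochondrially encoded loci was 367 FPKM in the DBP library, 201 with DiBP, 120 with both compounds and 85.7 in the control, where it was near the nuclear one. In the DBP library the lowest mitochondrially encoded ratio, 1.54, was above the highest nuclear one, 0.67. Of all 13859 loci, 280 lay above that lowest ratio.

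**Figure D5:**
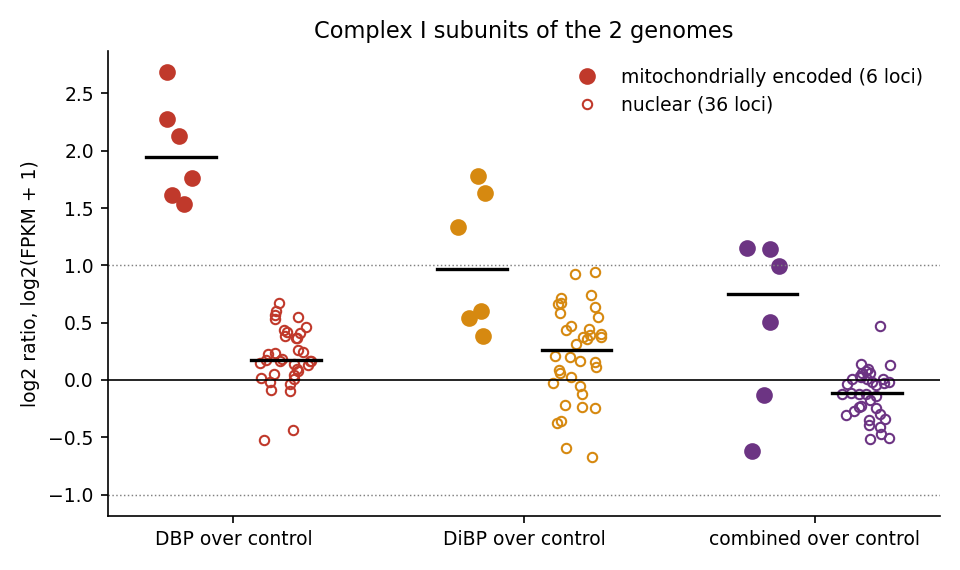
Log2 ratio to control, in log2(FPKM + 1), of the 6 mitochondrially encoded (filled) and 36 nuclear (open) complex I loci in the DBP, DiBP and combined libraries, with black bars at the medians and dotted lines at 2-fold. The nuclear medians lie at 0.17, 0.26 and -0.12, and the mitochondrially encoded ones at 1.94, 0.97 and 0.75.

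Complex I assembly factors had 13 measured loci, of which 0 passed 2-fold in any of the 3 comparisons with control, with medians of 0.01, 0.16 and -0.23 for DBP, DiBP and combined. A count of 0 in 13 is near the share of all loci and says nothing particular of the list. Genes that transcribe and copy mitochondrial DNA had 17 measured loci and medians of 0.08, -0.01 and -0.19. None of the 17 was at least 2-fold higher in any exposed library, and 0, 2 and 2 were at least 2-fold lower with DBP, DiBP and both compounds, against 3.31%, 7.04% and 3.23% of all loci. POLG, the mitochondrial DNA polymerase, was at 3.41 FPKM in the DBP library, 1.63 with DiBP, 1.84 with both compounds and 5.90 in the control. TFB1M, a methyltransferase of mitochondrial ribosomal RNA, was at 12.1 FPKM in the DBP library, 7.02 with DiBP, 3.40 with both compounds and 11.5 in the control. Both were thus lower in the DiBP and combined libraries than in the control. With DiBP, TFB1M stayed within 2-fold of the control, at a log2 ratio of -0.64. The loci past 2-fold there were POLG (-1.39) and RRM2B (-1.28).

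Genes of mitochondrial RNA processing, stability and translation had 24 measured loci and medians of 0.04, -0.19 and -0.06 for DBP, DiBP and combined. At least 2-fold higher were 0 in each library, and 1, 4 and 0 were at least 2-fold lower, against 4.81%, 7.25% and 3.48% of all loci higher and 3.31%, 7.04% and 3.23% lower. The widest ratios were in the DiBP library. The translational activator of MT-CO1 in human mitochondria, taco1, was at 25.7 FPKM in the DBP library, 1.35 with DiBP, 16.5 with both compounds and 24.3 in the control. GATB, which serves the making of mitochondrial glutaminyl-tRNA, was at 80.7 FPKM in the DBP library, 6.51 with DiBP, 58.3 with both compounds and 78.0 in the control. The gene fastk, whose mitochondrial protein form is needed for ND6 mRNA in mouse and human cells, was at 4.69 FPKM in the DBP library, 2.76 with DiBP, 6.45 with both compounds and 12.8 in the control.

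The nuclear subunits of complexes II to V, with 37 measured loci, had medians of 0.14, 0.04 and -0.10 for DBP, DiBP and combined, with 2, 2 and 0 at least 2-fold higher and 0 lower in each. The share higher was near that of all loci (4.81%, 7.25% and 3.48%). UQCRH, a hinge subunit of complex III, was at 186 FPKM in the DBP library, 196 with DiBP, 84.6 with both compounds and 76.7 in the control. The other locus past 2-fold, cox6b1, was at 4.15 FPKM in the DBP library, 2.23 with DiBP, 1.42 with both compounds and 0.303 in the control. Regulators of mitochondrial biogenesis had 10 measured loci and medians of 0.00, -0.09 and 0.04, with 0 at least 2-fold higher in any library and 1 lower, ESRRA with DiBP. This gene, of a nuclear receptor of energy metabolism, was at 3.04 FPKM in the DBP library, 1.80 with DiBP, 3.49 with both compounds and 5.51 in the control. Mitochondrial chaperones, proteases and stress genes (22 loci) had medians of -0.08, -0.30 and -0.11, and genes of mitochondrial dynamics and mitophagy (12 loci) -0.10, -0.34 and -0.24. In these 2 lists 0 loci were at least 2-fold higher in any exposed library, which is near the share of all loci. At least 2-fold lower were 1 chaperone, protease and stress locus with DBP, and 1 dynamics and mitophagy locus with DBP and 1 with DiBP. CLPP, a matrix protease, was at 10.5, 11.8 and 18.3 FPKM in the DBP, DiBP and combined libraries and at 24.1 in the control. PINK1, a kinase of mitophagy, was at 4.28, 1.21 and 2.44 FPKM in the DBP, DiBP and combined libraries and at 4.76 in the control.

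Among 6630 named loci outside the mitochondrial genome with a mean of at least 5 FPKM, those closest in pattern to the complex I loci over the 4 libraries were found by the distance between log2 profiles, each less its own mean. Clone names and loci with several gene names were not among the 6630. The 5 closest, leaving out symbols borne by several identifiers, were ppdpfb (distance 0.18), EIF4E2 (0.39), diablob (0.40), MPHOSPH6 (0.46) and TRMT10A (0.49). The 6 complex I loci lay between 0.36 and 0.98 from their own median profile, so ppdpfb was nearer to it than any member. Its level was 504 FPKM in the DBP library, 324 with DiBP, 233 with both compounds and 142 in the control. With just 4 libraries, many loci can share an order, and the likeness is a description.

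The tissue label was checked by markers. Oocyte genes summed to 3308, 3535 and 1804 FPKM in the DBP, DiBP and combined libraries and to 2422 in the control over 10 rows, with zp3b listed at 0 in each. The linker histone gene h1m held much of these sums, and without it, an alternative added after the values were seen, they were 1855, 1645 and 1377 FPKM in the DBP, DiBP and combined libraries and 1891 in the control. Neither order of libraries is that of MT-ND1, MT-ND5 and MT-ND6. Single oocyte genes differed in this. The gene figla stood in the order of those members, at 41.2, 24.7 and 21.1 FPKM in the DBP, DiBP and combined libraries and 17.6 in the control. The genes h1m and zpax4 did not. The gene zpax4 stays in both sets of sums. Its level was 684, 480 and 658 FPKM in the DBP, DiBP and combined libraries and 963 in the control. In the combined and control libraries it exceeded h1m, at 427 and 531 FPKM there. No sum was taken without zpax4. Smooth muscle and vessel markers (13 rows) summed to 42.8, 17.9 and 11.0 FPKM in the DBP, DiBP and combined libraries and to 9.78 in the control, and leukocyte markers (12 rows) to 11.5, 9.16 and 6.15 and to 4.07 in the control. TAGLN, a smooth muscle gene, held much of the muscle and vessel sum, with 33.5, 10.1 and 6.79 FPKM in the DBP, DiBP and combined libraries and 5.47 in the control. Granulosa markers (7 rows) summed to 7.22, 6.41 and 2.93 FPKM in the DBP, DiBP and combined libraries and to 2.39 in the control, where rows of FOXL2, FSHR and inha were listed at 0. These 3 sums stood in the same order of libraries as MT-ND1, MT-ND5 and MT-ND6. Of their loci, 4 muscle and vessel, 3 leukocyte and 2 granulosa ones averaged 1 FPKM or more. TAGLN, MYL9 and acta2 kept that order. The remaining muscle and vessel locus did not, with a log2 ratio of -0.25 for DBP over control. The measured granulosa and leukocyte loci did not keep it either. The granulosa gene CYP19A1 was highest with DiBP (4.18 FPKM, and 3.65 with DBP). The measured FOXL2 row was at 1.43, 1.19 and 1.24 FPKM in the DBP, DiBP and combined libraries and 1.16 in the control. Of the leukocyte genes, cd74a was lowest in the combined library (0.485 FPKM, and 1.04 in the control) and lyz was highest there (2.64 FPKM). The remaining leukocyte locus had log2 ratios to control of 0.28 for DBP, 0.79 for DiBP and 0.62 for combined. Theca and interstitial markers (6 rows) summed to 95.2, 52.2 and 81.6 FPKM and to 68.7 in the control, and erythrocyte markers (6 rows) to 1.71, 2.28 and 0.583 and to 0.822 in the control. Of 3 rows of MPEG1, a macrophage gene, 1 was at 0 in the DBP library and 2 in each of the other libraries. A CLDN5 row was at 0 in all but the DBP library, and rows of spi1a, hsd3b1, hbaa1 and gata1a were at 0 in the control. A FOXL2 row was at 0 with DiBP as well as in the control. The part of these cell types in the complex I values was not tested.

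Over all rows of a table, FPKM summed to 572398 in the DBP library, 598063 with DiBP, 512635 with both compounds and 534379 in the control. Depth is unknown, so no counting interval can be given for any level. Complex I loci made up 0.470%, 0.232% and 0.173% of the summed FPKM of all loci in the DBP, DiBP and combined libraries and 0.125% in the control.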

How the data were processed

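The deposited tables hold 1 value per row and library, taken as FPKM from the look of the values, since neither headers nor labels state a unit. Per the labels' protocols, total RNA of snap-frozen ovary was made into NEBNext Ultra libraries and read in pairs on a HiSeq X instrument. GRCz10, HISAT2 and HTSeq 0.6.1 are named in the submitters' processing notes. Their order, the annotation and the use of strand are not stated there. Per the file headers, the DiBP and combined columns carry short names that differ from the sample titles, and files were assigned by their recorded sample.

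Rows with 4 identical values were collapsed (35253 loci), and those averaging 1 FPKM or more over the libraries (13859) were used without rescaling. Ratios are differences of log2(FPKM + 1), and 2-fold was the line for a call. Symbols came from an identifier table (26996 of 35066 Ensembl rows matched), gene order from RefSeq's GRCz12tu table. List symbols were also matched with or without a final a or b. Some list loci share their values with another named gene, as those of NDUFA6, NDUFA12, ndufb3, NDUFB11 and NDUFS4 do. The locus of mterf3 and UQCRB is counted in the lists of both. The members, the gene lists and the rule for named genes (up to 3 widest ratios a list, 5 closest profiles) were chosen with earlier results of these data known, and some genes that rule takes are left out. No sequence is shown. The code was tested on simulated data. Python 3.11.15, numpy 2.4.6, pandas 2.3.3 and matplotlib 3.10.9 were used.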

Additional observations from a re-analysis of the deposited data

Results flagged for a closer look

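Complex I transcripts differed between libraries with and without DBP in opposite directions, depending on whether DiBP was present. The median log2 ratio of the 6 complex I loci was -0.61 for combined over DiBP, against 1.94 for DBP over control, and the median of the differences of these ratios was -2.54. The direction turned at 5 of 6 loci, MT-ND2 being the exception (4 of 6 after scaling to the total less the 50 most abundant loci, where MT-ND6 was at 0.0017 for combined over DiBP). The same pair of directions was seen at 33.1% of all loci, and at 3 of the 4 mitochondrial loci outside complex I. At these 4 loci the differences ran from -1.30 to -0.68. With 1 library a group the difference was not tested. It also rests on the assignment of the DiBP and combined files, whose column names differ from the sample titles.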

How the results depend on the processing

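Of 252 ratios of a single complex I locus recomputed under 7 alternatives, 242 kept their direction and their side of the 2-fold line. The alternatives of no filter on the mean and of a mean of at least 5 FPKM cannot move a member's ratio. Under them each ratio could only count as kept. MT-ND6 turned to 0.0017 for combined over DiBP after scaling to the total less the 50 most abundant loci, MT-ND1 for combined over control passed the line with a pseudocount of 0.1 FPKM and each of the 4 scalings (up to 1.11), and 4 ratios to DBP or DiBP fell short of it. After scaling to the total less the 50 most abundant loci, fewer complex I loci were at least 2-fold lower. They were 3 for combined over DBP and 0 for combined over DiBP. Total scaling gave 4 for combined over DBP. The median for DiBP over control was 1.05 as a mean, and 0.60 with ND4 and ND4L counted apart. For DBP over control no alternative took the median below 1.76. Total scaling moved the median of all loci by -0.10 for DiBP over control.

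Counts over all loci moved more. With a pseudocount of 0.1 FPKM they were 1094 higher and 789 lower for DBP, 1498 lower for DiBP, and 860 higher and 833 lower for combined. At a mean of at least 5 FPKM they were 264 and 239 for DBP, 430 and 529 for DiBP, and 180 and 189 for combined. That filter leaves fewer loci, so counts under it could only fall, and no share can be read from them. Among the 553 loci within the mean range of complex I, 30 were higher and 24 lower for DiBP, and 15 and 6 for combined. Shares with ribosomal RNA rows were not run, since no table used here names those rows. No paired analysis was possible because each group has 1 library.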
